A study of Mus musculus with 12 samples.

Results

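Cdkn1b, Gadd45a, Gadd45b, Gadd45g and Mapkapk2 were followed in PUER cells, a mouse myeloid progenitor line, with and without a short hairpin RNA (shRNA) against Hnrnpa0. These 5 genes were taken by name from the array design, where 9 probes carry their symbols, out of 27669 genes named in all. Each gene was measured on all 12 arrays.

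PUER cells lack their own PU.1, a transcription factor that directs myeloid differentiation, and carry a fusion of PU.1 to the hormone-binding domain of the estrogen receptor, so that 4-hydroxytamoxifen (4-OHT) switches the fusion protein on. All cells here grew in IL-3, were infected with a retrovirus and were sorted for GFP. They carried either a control vector or an Hnrnpa0 shRNA vector, and each vector was profiled before 4-OHT and after 24 h in 2 nM 4-OHT, with 3 arrays in each of the 4 groups. The replicates are stated to be independent experiments on unique clones, so an array of one vector differs from an array of the other by clone as well as by hairpin. The cells before 4-OHT were harvested ahead of the exposure, and the drug and the 24 h of further culture cannot be told apart in these groups.

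The genes belong to one checkpoint route. The kinase MK2, encoded by Mapkapk2, is activated by p38 MAP kinase under stress and DNA damage and phosphorylates the RNA-binding protein hnRNPA0, which in other cells binds and stabilises the transcripts of Gadd45a and of Cdkn1b. Cdkn1b encodes p27, an inhibitor of cyclin-dependent kinases (CDKs) that holds cells in G1, and the GADD45 proteins are small stress sensors that act on CDK1, on the replication clamp PCNA and on the kinase MEKK4 upstream of p38. In myeloid progenitors, Gadd45a and Gadd45b are known as genes induced by differentiation signals and genotoxic stress. Message stability was not measured here: an array reads the amount of a transcript, and in a bulk culture fewer cells of a kind and less RNA per cell cannot be told apart.

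The probes and promoters are given first because the results turn on where a probe lies and on genes that moved apart. Cdkn1b had 3 probes on chromosome 6 (mm7). Probe A_51_P169173 (chr6:134935407-134935465) reads the coding sequence and was printed on 10 spots, A_51_P146126 (chr6:134939519-134939578) starts 4112 bases further downstream and is assigned to the cDNA AK169586, and A_52_P673863 (chr6:134937910-134937969) lies between them. Mapkapk2 had the coding probe A_51_P118902, whose 60 bases spread over 459 bases of chromosome 1 (chr1:130960123-130960581) and so cross a splice junction, and A_52_P15008 (chr1:130958234-130958293). The coding probes, shown because they read the body of each message, are these:
Cdkn1b A_51_P169173: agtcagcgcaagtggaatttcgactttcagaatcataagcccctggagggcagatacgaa
Mapkapk2 A_51_P118902: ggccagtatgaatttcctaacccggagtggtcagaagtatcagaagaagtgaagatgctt

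Gadd45a had 1 probe (A_51_P296608, chr6:67017167-67017226) and so had Gadd45g (A_51_P315904, chr13:50882456-50882515). Gadd45b had 2 on chromosome 10, A_51_P500984 (chr10:80721751-80721810) and A_52_P1197913 (chr10:80721228-80721287), which start 523 bases apart.

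The promoters of the 3 genes with a 4-OHT call are shown with their motifs in capitals. RefSeq promoter sequences (GRCm38.p6) were matched for all 5 genes, and 300 bases around each start site were searched on both strands for the octamer ATTTGCAT, the CCAAT box, the E-box CACGTG, the forkhead motif GTAAACA and GAGGAA, the core of the ETS site that PU.1 reads. The 250 bases before each start site are:
Gadd45a (chr6:67037408-67037657, minus strand): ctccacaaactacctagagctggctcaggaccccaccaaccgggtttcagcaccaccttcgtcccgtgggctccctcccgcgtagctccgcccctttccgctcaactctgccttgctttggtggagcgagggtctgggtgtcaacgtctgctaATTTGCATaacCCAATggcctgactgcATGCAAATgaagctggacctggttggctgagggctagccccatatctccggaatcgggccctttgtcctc
Gadd45g (chr13:51846425-51846674, plus strand): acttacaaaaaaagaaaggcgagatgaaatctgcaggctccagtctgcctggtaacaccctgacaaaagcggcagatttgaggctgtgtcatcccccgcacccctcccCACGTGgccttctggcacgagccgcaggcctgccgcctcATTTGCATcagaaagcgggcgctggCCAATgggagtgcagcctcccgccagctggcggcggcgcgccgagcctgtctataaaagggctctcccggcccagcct
Mapkapk2 (chr1:131097844-131098093, minus strand): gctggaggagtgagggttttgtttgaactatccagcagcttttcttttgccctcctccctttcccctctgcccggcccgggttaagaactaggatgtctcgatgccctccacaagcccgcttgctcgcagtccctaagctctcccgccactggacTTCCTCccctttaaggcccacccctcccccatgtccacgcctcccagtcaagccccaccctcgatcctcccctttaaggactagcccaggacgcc
The Gadd45a promoter holds the octamer on both strands, 97 and 70 bases before the start site, on either side of a CCAAT box at 86. The Gadd45g promoter holds 1 octamer at 103, a CCAAT box at 78 and an E-box at 142. Octamers were found in 1.74% of 32851 promoters, CCAAT boxes in 37.41% and E-boxes in 7.15%. Octamer and CCAAT factors are known to bind the human GADD45A promoter. Mapkapk2 was the only one of the 5 with GAGGAA, on the minus strand with its site starting 95 bases upstream, a motif of 28.28% of promoters. Cdkn1b and Gadd45b hold CCAAT boxes, Gadd45b also an E-box at 185, and none of the 5 windows holds the forkhead motif (3.65% of promoters). These are matches of letters, and binding was not measured.

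Signals are given as log2 of the intensity over the array's 75th percentile, so 0 is the 75th percentile itself. The 75th percentile lay between 1195.7 and 2582.6 intensity units, and 50.30% to 55.66% of spots were well above background. The arrays sat on 3 slides: slide 1 held control before A, B and C with control after A, slide 2 held control after B and C and shRNA before A and B, and slide 3 held shRNA before C and the 3 shRNA arrays after. No slide held both vectors at the same time point. Of 10 myeloid markers, 9 or 10 were well above background on all 3 arrays of each group, including Mpo, Elane and Kit, with a summed level (linear intensity over the 75th percentile) of 100 to 160. Summed levels of the T cell, B cell, megakaryocyte and mast cell lists ran from 0.0934 to 1.1, with Cd3g, Cd8a, Ms4a1, Pax5, Pf4, Gp9, Cpa3 and Tpsb2 not well above background on any array. The megakaryocyte and mast cell sums were lower after 4-OHT in both vectors, at most 0.255 and 0.615 against at least 0.306 and 0.97 before. Their largest parts were Gp1bb and Mcpt8, and other members went the other way. Ppbp was well above background on 0 arrays before, and on 3 control and 2 shRNA arrays after. Fcer1a went from 0 to 1 of 3 control arrays and from 1 to 3 of 3 shRNA arrays. Among erythroid markers Klf1 and Epor were lower after 4-OHT too, at most 0.0341 and 0.095 against at least 0.101 and 0.133 before, while Hba-a1 overlapped between times, and the part of these markers in the results was not tested.

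Hnrnpa0, the target of the hairpin, checked the labels. Its level was 3.11, 3.06 and 2.98 on the control arrays before 4-OHT and 1.93, 1.57 and 1.00 on the shRNA arrays. After 4-OHT it was 2.60, 2.63 and 2.73 in control and 0.56, 0.65 and 0.46 in shRNA cells. The vectors did not overlap at either time. Over both times Hnrnpa0 was 3.54-fold lower with the shRNA (log2 difference -1.82, SE 0.13; limma adjusted p = 0.000708), and a fixed slide block gave -1.38 (adjusted p = 0.108). Its level on shRNA before C, the only array of that group on slide 3, was the lowest of the 3.

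Between the cells before and after 4-OHT, 3 of the 5 genes differed, in the same direction in both vectors. Gadd45a and Mapkapk2 fell and Gadd45g rose. Gadd45b and Cdkn1b had no call from the probe used for the gene. The background was high: 40.5% of the 15063 genes tested were called in control cells and 38.3% in shRNA cells. The median log2 difference of the 5 genes was -0.12 in control and -0.11 in shRNA cells, against -0.07 and -0.08 over all genes.

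**Figure D1:**
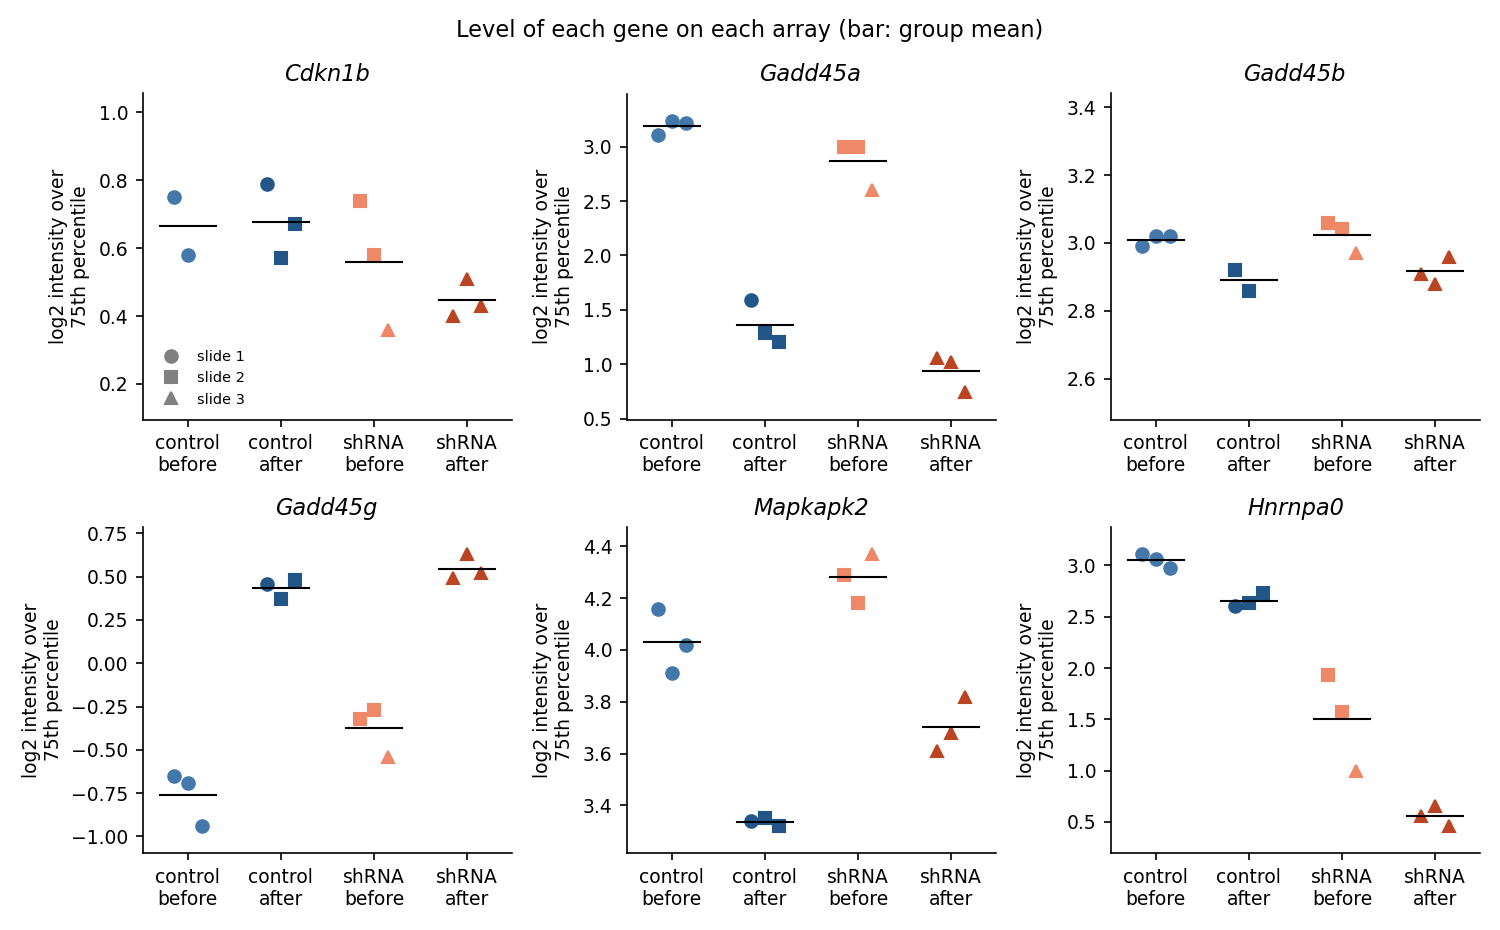
Level of the 5 genes and of Hnrnpa0 on each array, as log2 intensity over the array's 75th percentile (y axis), in the 4 groups (x axis). Points are arrays, shapes are slides and bars are group means; each panel has its own scale. Gadd45a runs from 3.24 down to 0.74 and Gadd45g from -0.94 up to 0.63, while Gadd45b stays between 2.86 and 3.06.

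Gadd45a, the stress-inducible member that binds PCNA and CDK1, changed most. Before 4-OHT its level was 3.11, 3.24 and 3.22 in control cells and 3.0, 3.0 and 2.60 in shRNA cells. After 24 h it was 1.59, 1.29 and 1.20 in control and 1.06, 1.02 and 0.74 in shRNA cells. All 6 arrays after 4-OHT lay below all 6 before, and the lowest array before exceeded the highest after by more than the spread of any group. Gadd45a fell 3.56-fold in control cells (log2 difference -1.83, SE 0.14; adjusted p = 2.19e-06) and 3.8-fold in shRNA cells (-1.93, SE 0.14; adjusted p = 1.73e-06).

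Gadd45g, a GADD45 protein induced by cytokines, moved the other way. Before 4-OHT its level was -0.65, -0.69 and -0.94 in control and -0.32, -0.27 and -0.54 in shRNA cells. It was 0.46, 0.37 and 0.48 after 4-OHT in control and 0.49, 0.63 and 0.52 in shRNA cells. The groups before and after did not overlap in either vector. The rise was 2.3-fold in control cells (log2 difference 1.20, SE 0.10; adjusted p = 3.29e-06) and 1.9-fold in shRNA cells (0.93, SE 0.10; adjusted p = 2.61e-05). The 2 responses differed by -0.27 (95% interval -0.57 to 0.03; adjusted p = 0.951).

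Mapkapk2, the kinase that acts on hnRNPA0, fell less. By A_52_P15008 its level was 4.16, 3.91 and 4.02 before and 3.34, 3.35 and 3.32 after 4-OHT in control cells. In shRNA cells it was 4.29, 4.18 and 4.37 before and 3.61, 3.68 and 3.82 after. The groups did not overlap, and the fall was 1.62-fold in control cells (log2 difference -0.69, SE 0.08; adjusted p = 7.12e-05) and 1.49-fold in shRNA cells (-0.58, SE 0.08; adjusted p = 0.000304). The coding probe gave -0.61 and -0.54 (SE 0.10 each; adjusted p = 0.0005 and 0.00118 over the 22364 probes tested one by one), so both probes of Mapkapk2 fell in both vectors. Within slide 1 alone, which holds 1 array after 4-OHT, the coding probe gave -0.69 (adjusted p = 0.0672).

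Gadd45b, the member induced early by TGF-beta and NF-kB signals, differed little between times. By A_51_P500984 its level was 2.99, 3.02 and 3.02 before and 2.92 and 2.86 after 4-OHT in control cells, where the spot of control after A was an outlier and left out. In shRNA cells it was 3.06, 3.04 and 2.97 before and 2.91, 2.88 and 2.96 after. The groups lay side by side without overlap, but the log2 differences of -0.12 (95% interval -0.26 to 0.02; adjusted p = 0.167) and -0.11 (-0.23 to 0.02; adjusted p = 0.17) missed the threshold. The other probe gave 0.00 (-0.17 to 0.17) and 0.02 (-0.15 to 0.19).

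Cdkn1b depended on the probe. By the downstream probe A_51_P146126 its level was 0.75 and 0.58 in control cells before 4-OHT, where control before B was an outlier and left out, and 0.79, 0.57 and 0.67 after. In shRNA cells it was 0.74, 0.58 and 0.36 before and 0.40, 0.51 and 0.43 after. Times overlapped in both vectors, with log2 differences of 0.01 (95% interval -0.25 to 0.28) and -0.11 (-0.35 to 0.13). By the coding probe A_51_P169173 the level was -2.60, -2.50 and -2.76 before and -2.26, -2.33 and -2.23 after in control cells. That is a rise of 0.35 (SE 0.07; adjusted p = 0.00354) without overlap, and 0.36 within slide 1 alone, which holds 1 array after 4-OHT (adjusted p = 0.146). In shRNA cells the coding probe read -2.24, -2.26 and -2.21 before and -2.12, -2.09 and -2.19 after, a difference of 0.10 (SE 0.07; adjusted p = 0.3). The 2 responses of the coding probe differed by -0.25 (95% interval -0.48 to -0.01; adjusted p = 0.955). The spots of this probe had an SD between 0.07 and 0.14 on each array, over 9 or 10 spots. The third probe, A_52_P673863, was well above background on 3 of 12 arrays and had no call.

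**Figure D2:**
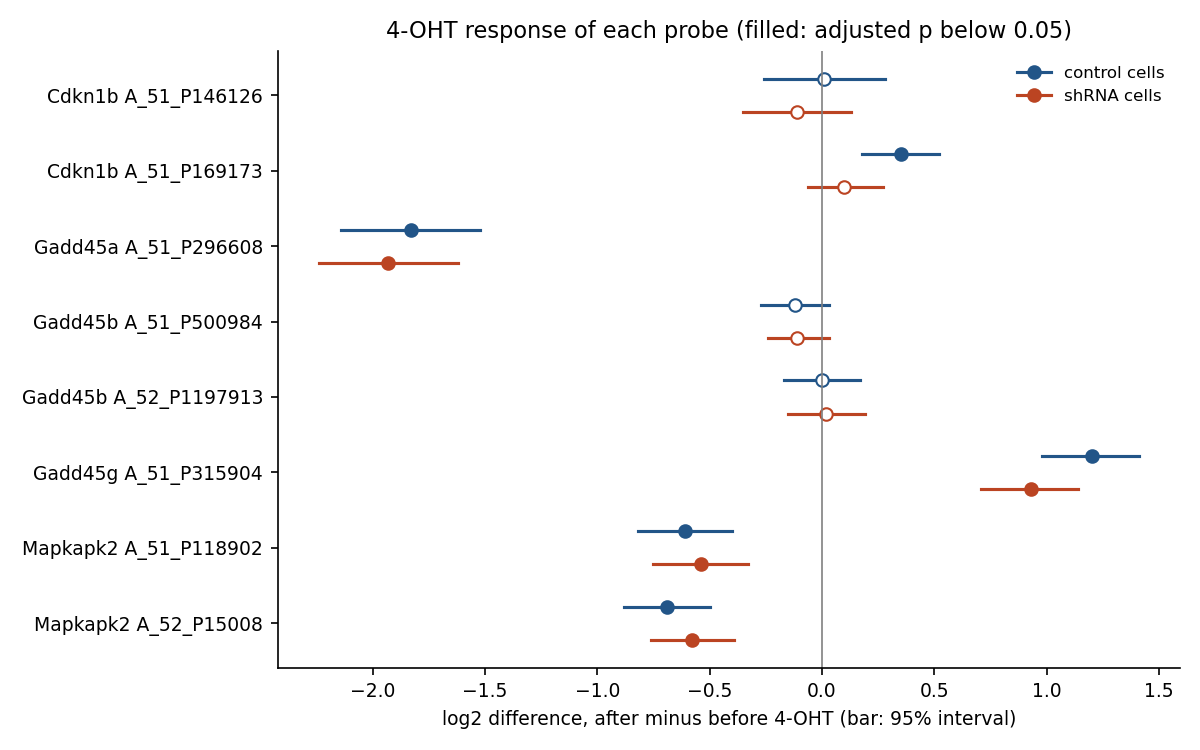
Log2 difference of each probe, after minus before 4-OHT (x axis), in control and shRNA cells, with its 95% interval; filled points have an adjusted p below 0.05. Gadd45a lies near -1.83 and -1.93, Gadd45g at 1.20 and 0.93, and the coding probe of Cdkn1b is filled in control cells, at 0.35.

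For the difference of the 4-OHT responses between vectors, 0% of the 15063 genes were called by limma, none of the 5 genes among them, while 791 genes had an unadjusted p under 0.05. None of the 5 responses was thereby shown to depend on the vector. The interval for Gadd45a ran from -0.53 to 0.34 and that for Mapkapk2 from -0.15 to 0.38.

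Before 4-OHT none of the 5 genes was called between vectors, against a background of 0.378% of genes. After 4-OHT 1 was called, Mapkapk2, against 16.7%. Averaged over both times 3 were called, Gadd45a lower and Gadd45g and Mapkapk2 higher with the shRNA, against 28.0%. The medians of the 5 genes were 0.01, 0.03 and 0.02, against -0.03, -0.04 and -0.03 over all genes. With slide as a block, fixed or random, none of the 5 genes was called between vectors. These calls and the slides cannot be told apart. The share of all genes whose groups do not overlap is not given here, so lack of overlap only describes the arrays.

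Gadd45a was the member called lower with the shRNA, over both times alone. Every shRNA array lay below every control array of its time, by 0.33 before (95% interval -0.64 to -0.02 for the log2 difference; adjusted p = 0.204) and 0.42 after 4-OHT (-0.73 to -0.11; adjusted p = 0.0622). Over both times it was 1.3-fold lower (log2 difference -0.37, SE 0.10; adjusted p = 0.0197). A fixed slide block turned the sign, to 0.12 (adjusted p = 0.772), and a random one gave -0.23 (adjusted p = 0.325). Within a group, control after A on slide 1 read 1.59, against 1.29 and 1.20 for B and C on slide 2, and shRNA before C on slide 3 read 2.60, against 3.0 and 3.0 for A and B on slide 2. The replicates of a group are also different clones, and the 3 shRNA arrays after 4-OHT, all on slide 3, spread from 0.74 to 1.06. With normexp background correction the difference over both times was -0.29 (adjusted p = 0.0752).

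Mapkapk2 was higher with the shRNA by both probes and at both times. By A_52_P15008 the log2 difference was 0.25 before (SE 0.08; adjusted p = 0.133), 0.37 after (SE 0.08; adjusted p = 0.0218) and 0.31 over both (SE 0.06; adjusted p = 0.00628), a 1.24-fold difference over both times. Every shRNA array exceeded every control array of its time. By the coding probe the differences were 0.35, 0.42 and 0.38 (adjusted p = 0.0901, 0.0218 and 0.00483). With slide as a fixed block they fell short of the threshold, at 0.22 over both times for A_52_P15008 (adjusted p = 0.548). Without control after B, shRNA after B or shRNA after C, the call of A_52_P15008 after 4-OHT was lost (adjusted p = 0.0643, 0.0575 and 0.0712). That of the coding probe was lost without any of these or control after A (adjusted p = 0.0538 to 0.0743) and with normexp (0.0701).

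Gadd45g was also higher with the shRNA. The log2 difference was 0.39 before (SE 0.10; adjusted p = 0.08), 0.11 after (SE 0.10; adjusted p = 0.428) and 0.25 over both times (SE 0.07; adjusted p = 0.0225), with no overlap between vectors at either time. A fixed slide block gave 0.43 (adjusted p = 0.328). The call over both times was lost without control after B, shRNA before B or shRNA after B (adjusted p = 0.0542, 0.0533 and 0.0546).

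Cdkn1b and Gadd45b gave 2 readings each. Over both times the downstream probe of Cdkn1b read lower with the shRNA by a log2 difference of -0.17 (95% interval -0.35 to 0.01, adjusted p = 0.143), and higher by 0.15 with a fixed slide block. The difference of this probe was -0.11 before (adjusted p = 0.622) and -0.23 after 4-OHT (-0.47 to 0.01, adjusted p = 0.159). The vectors overlapped before 4-OHT and did not overlap after. The coding probe rose by 0.26 (0.14 to 0.38, adjusted p = 0.00736), with no overlap between vectors at either time. Its difference was 0.38 before (adjusted p = 0.0584) and 0.14 after 4-OHT (adjusted p = 0.216). The difference before 4-OHT passed with quantile scaling (adjusted p = 0.0413) and with probes well above background on all 12 arrays (adjusted p = 0.0359). A fixed slide block put it at 0.39 without a call (adjusted p = 0.244). Gadd45b differed by 0.02 by A_51_P500984 (-0.08 to 0.11; adjusted p = 0.768) and rose by 0.29 by A_52_P1197913 (0.17 to 0.42; adjusted p = 0.00561). The latter read 2.13, 1.98 and 2.00 before and 2.10, 1.95 and 2.06 after in control cells. In shRNA cells it read 2.28, 2.27 and 2.41, and 2.26, 2.33 and 2.43, all 6 above all 6 control arrays. Over both times, with a fixed slide block, the coding Cdkn1b probe gave 0.24 (adjusted p = 0.486) and the Gadd45b probe 0.26 (adjusted p = 0.427). After 4-OHT the Gadd45b probe differed by 0.31 (adjusted p = 0.028), a call lost without control after B, shRNA after B or shRNA after C (adjusted p = 0.0937, 0.073 and 0.0916) and in a fit on those groups alone (0.0702). Normexp reduced the value of the coding Cdkn1b probe over both times to 0.11 (adjusted p = 0.262).

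**Figure D3:**
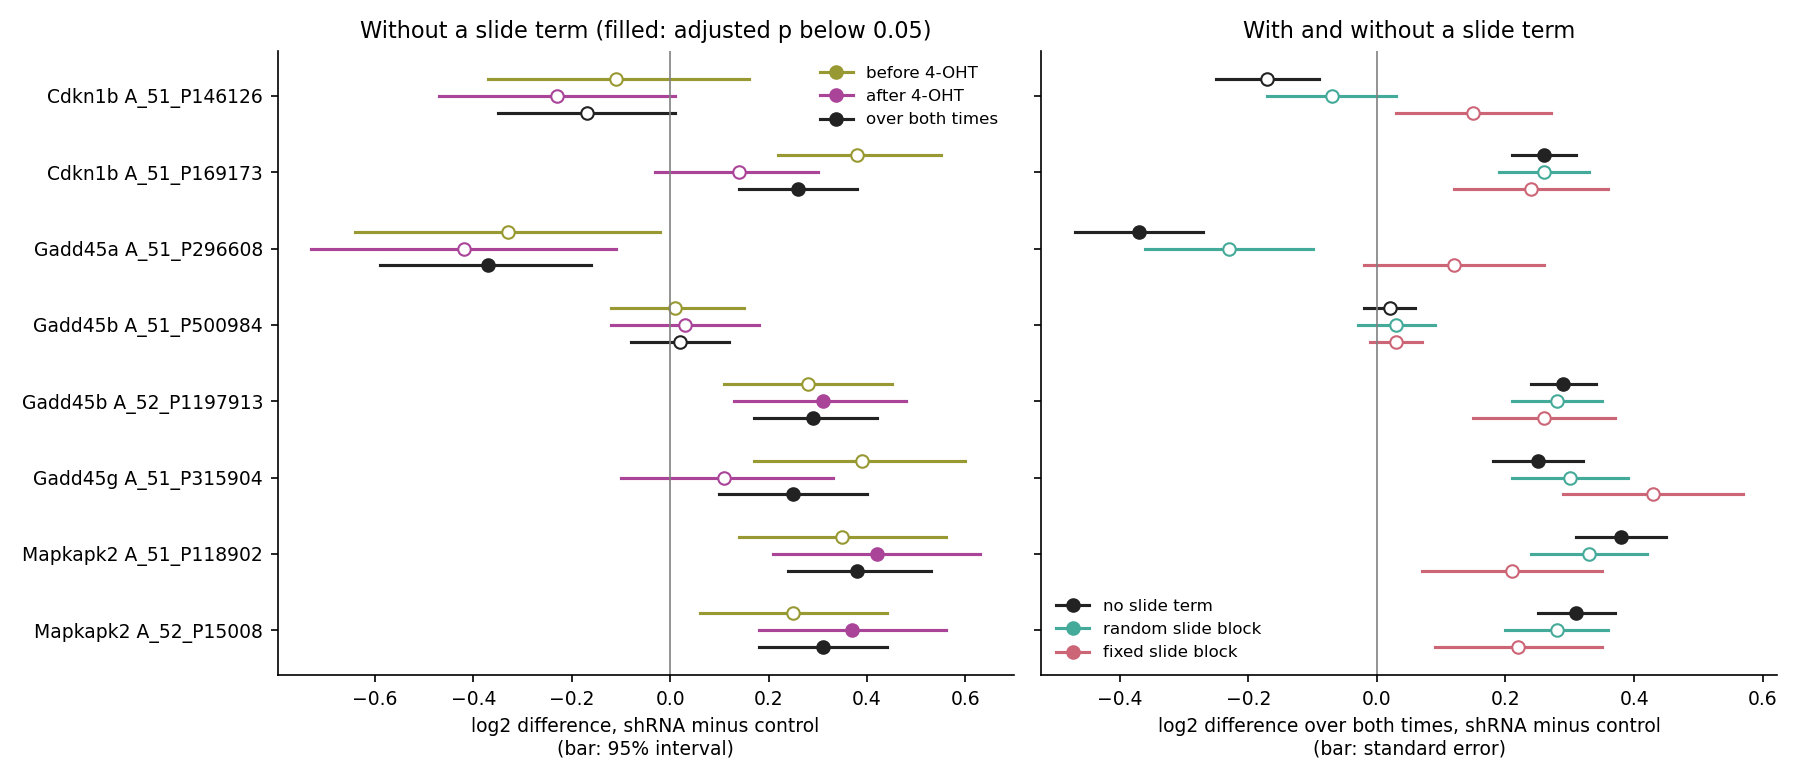
Log2 difference of each probe, shRNA minus control (x axes). Left, before, after and over both times with 95% intervals; right, over both times without a slide term and with a random or fixed slide block, with standard errors. Filled points have an adjusted p below 0.05: none is filled with a slide block, and Gadd45a moves from -0.37 to -0.23 and 0.12.

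Set against each other on the same array, the 2 probes of Cdkn1b and of Gadd45b lay closer on the shRNA arrays of each time, a split that the slides share in part. The downstream probe of Cdkn1b exceeded the coding probe by 3.35 and 3.34 before and 3.05, 2.90 and 2.90 after 4-OHT in control cells. In shRNA cells it did so by 2.99, 2.84 and 2.56 before and 2.52, 2.60 and 2.62 after. The vectors did not overlap at either time, and the 1 shRNA array before 4-OHT on slide 3 had the lowest value of its group. In control cells the gap was also smaller after 4-OHT, without overlap. On slide 2 the vectors did overlap, at 2.90 and 2.90 for control after B and C against 2.99 and 2.84 for shRNA before A and B. Vector and slide cannot be told apart in these gaps. For Gadd45b, A_51_P500984 exceeded A_52_P1197913 by 0.79 to 1.03 in control cells and by 0.53 to 0.77 in shRNA cells. On slide 2 these values were 0.97 and 0.79 for control after B and C, and 0.77 and 0.77 for shRNA before A and B. The same difference for Mapkapk2 ran from 2.00 to 2.20 in control and from 1.95 to 2.07 in shRNA cells, which overlap. These pairs were looked at after their values were seen and were not tested. Disagreement between probes was common: among 2954 genes with several probes and at least 1 called over both times between vectors, 46.2% had another probe of the opposite sign, against 18.0% of 3038 such genes for 4-OHT in control cells.

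**Figure D4:**
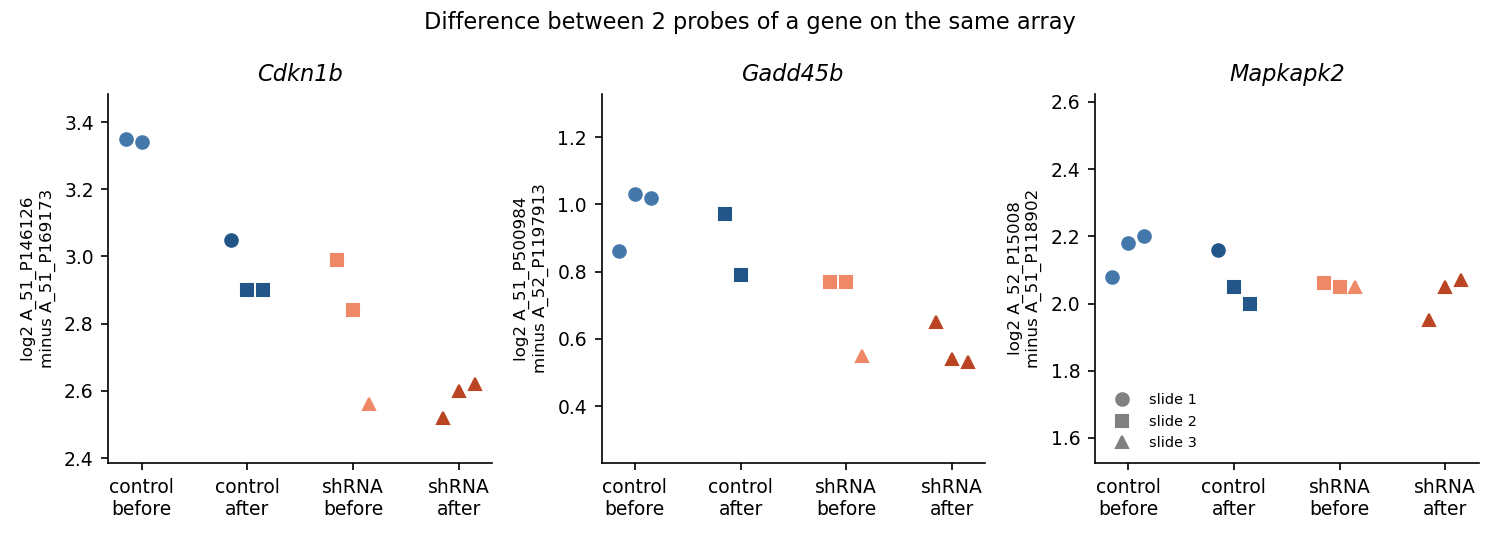
Log2 difference between 2 probes of a gene on the same array (y axis), in the 4 groups (x axis), for Cdkn1b, Gadd45b and Mapkapk2; points are arrays and shapes are slides, and all panels span the same range. Cdkn1b runs from 3.35 down to 2.52, while Mapkapk2 stays between 1.95 and 2.20.

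Counts in the lists that follow are to be read against the 40.5%, 38.3% and 16.7% of all genes called for 4-OHT in control cells, for 4-OHT in shRNA cells and between vectors after 4-OHT, and against medians of -0.07, -0.08 and -0.04 over all genes. The kinases around MK2 were read from a list of 18 genes of the p38 cascade, 15 of them tested. In control cells 5 rose and 2 fell with 4-OHT, and in shRNA cells 7 rose and 1 fell, with medians of 0.13 and 0.15. These shares of 7 and 8 in 15 were not tested against the background. Rps6ka5, encoding the p38-activated kinase MSK1, rose 1.94-fold and 2.17-fold (adjusted p = 1.41e-05 and 5.11e-06). Map2k6, encoding the p38 activator MKK6, fell 1.67-fold and 1.6-fold, while Map2k3, encoding its relative MKK3, rose 1.39-fold and 1.41-fold. Tab2, an adaptor of the kinase TAK1, rose 1.37-fold and 1.4-fold. Between vectors after 4-OHT, 3 of 15 were higher and none lower, a share close to the background: Mapkapk3, the closest relative of Mapkapk2 (log2 difference 0.38, adjusted p = 0.014), Tab2 (0.34, adjusted p = 0.0203) and Map2k6 (0.29, adjusted p = 0.022). Over both times 4 were higher and 2 lower; Mapk14, encoding p38 alpha, was lower by -0.20 (adjusted p = 0.00613). The calls of Map2k6 after 4-OHT and of Mapk14 were lost with normexp (adjusted p = 0.154 and 0.0741), the latter also with quantile scaling (0.0673). With a slide block, fixed or random, 2 of the genes in the 6 lists kept a call between vectors, Hnrnpa0 (adjusted p = 0.00834) and Cdc25a, both over both times with the random block.

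Of 10 genes for MK2 substrates, 9 were tested. In control cells 3 rose and 1 fell with 4-OHT, with a median of -0.10, and in shRNA cells 2 rose and 2 fell, with a median of 0.02. Hnrnpa0 itself was among the falls in shRNA cells, 1.93-fold (limma adjusted p = 0.00193). In control cells it read 1.31-fold lower without a call (adjusted p = 0.112). The 2 responses of Hnrnpa0 differed by -0.55 (95% interval -1.12 to 0.02, adjusted p = 0.943), so a dependence on the vector was not shown. Lsp1, an actin-binding protein of leukocytes, was not well above background on any array before 4-OHT and was on all 6 after, at least 3.01-fold higher in control and at least 3.2-fold higher in shRNA cells (adjusted p = 6.59e-09 and 9.26e-09). Ripk1, a kinase of cell death signalling, rose 1.22-fold and 1.39-fold, and the CDK-activating phosphatase gene Cdc25b rose 1.19-fold in control cells. Zfp36l1 was well above background on shRNA arrays before 4-OHT alone, and fell there at least 1.58-fold. The fall counted in control cells is also that of Zfp36l1, which was not well above background on any control array. After 4-OHT the shRNA cells had less Zfp36, which encodes the message-destabilising protein TTP (log2 difference -0.51, adjusted p = 0.0309), and less Rbm7 (-0.38, adjusted p = 0.0382). They had more Parn, a poly(A) ribonuclease (0.44, adjusted p = 0.013), and more Ripk1 (0.38, adjusted p = 0.0268). In all, 2 of 9 were higher and 4 lower, Hnrnpa0 itself and Lsp1 (-0.44, adjusted p = 0.0489) among the lower. With normexp the vector calls of Zfp36, Rbm7 and Lsp1 were lost (adjusted p = 0.0553, 0.0556 and 0.102), and so were the 4-OHT calls of Ripk1 and Cdc25b in control cells (0.104 and 0.131). A fixed slide block also lost both 4-OHT calls of Ripk1 (adjusted p = 0.122 and 0.0519), and quantile scaling lost that of Lsp1 between vectors (0.0548).

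Of 12 genes for p27 turnover and transcription, all tested, 1 rose and 1 fell with 4-OHT in control cells and 1 fell in shRNA cells, with medians of 0.01 and 0.06. Pim1, a kinase that phosphorylates p27, rose 1.42-fold in control cells (adjusted p = 0.0199; 0.21 with a fixed slide block). Foxo4, a forkhead factor gene close to background, read 1.75-fold and 1.49-fold lower (adjusted p = 0.00317 and 0.0218; 0.656 and 0.255 with normexp). After 4-OHT it was well above background on 1 of 3 control and 2 of 3 shRNA arrays, so these folds rest in part on spots not well above background. Skp2 and Cks1b, which mark p27 for degradation, had no call in any comparison. After 4-OHT, Elavl1, encoding the RNA-binding protein HuR, was 1.45-fold lower with the shRNA (adjusted p = 0.0233). Rnf123, part of a p27 ubiquitin ligase, was 1.31-fold higher, the forkhead factor gene Foxo1 1.25-fold and Cul1 1.17-fold higher. With normexp none of the 12 was called after 4-OHT (adjusted p = 0.059 for Elavl1).

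Of 10 cyclins and CDKs that p27 binds, 7 were tested. The measured signal of Cdk6 fell 1.83-fold with 4-OHT in control and 1.57-fold in shRNA cells (adjusted p = 0.000151 and 0.00129). Its probe was saturated on 2 of 3 arrays before 4-OHT in each vector and on none after, so the levels before are lower limits. The probe of cyclin D2 (Ccnd2), which had no call, was saturated more often after 4-OHT. It was so on 1 of 3 control arrays before and 3 after, and on 0 and 2 of 3 shRNA arrays, so a rise could be missed. Cyclin E1 (Ccne1) fell 1.22-fold in control cells, and no gene of this list rose in either vector. The list's median was -0.14 in control and -0.05 in shRNA cells. Between vectors after 4-OHT 3 were higher and 1 lower: Cdk1 (log2 difference 0.49, adjusted p = 0.049), Cdk4 (0.46, adjusted p = 0.014) and Ccne1 (0.35, adjusted p = 0.026) against cyclin E2 (Ccne2), which was 2.48-fold lower (-1.31, SE 0.30; adjusted p = 0.0217). Both calls of Ccne1 were lost with normexp (adjusted p = 0.0929 for 4-OHT and 0.148 between vectors). Of 6 other CDK inhibitor genes 4 were tested. Cdkn2b, encoding p15, rose 2.35-fold and 1.7-fold with 4-OHT (adjusted p = 6.07e-05 and 0.00185; the latter 0.0521 with a fixed slide block), and Cdkn1a, encoding p21, fell 1.3-fold and 1.36-fold. None of the 4 was called between vectors.

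Of 20 checkpoint genes and GADD45 partners, 19 were tested. The probe of Pcna was saturated on all 12 arrays, so its differences could not be read. In control cells 2 rose and 5 fell with 4-OHT, and in shRNA cells 3 rose and 2 fell, with medians of -0.09 and -0.01. Cdc25a, the phosphatase that checkpoint kinases mark for degradation, fell 1.79-fold and 1.48-fold. Wee1, the kinase that restrains CDK1, fell 1.37-fold in control cells, and Rad9a, a subunit of the checkpoint clamp, rose 1.37-fold and 1.42-fold (the latter with adjusted p = 0.101 with a fixed slide block). Hus1, a further clamp subunit, fell 1.26-fold in control cells. The calls of Wee1 and Hus1 were lost with normexp (adjusted p = 0.152 and 0.158). In shRNA cells Atm rose 1.41-fold and Clspn, encoding claspin, 1.26-fold (adjusted p = 0.458 and 0.157 with a fixed slide block). After 4-OHT 6 of the 19 were higher with the shRNA and none lower, against 16.7% of all genes called. The median of the list was 0.24, against -0.04 over all genes. The largest differences were those of Cdc25a (0.58, adjusted p = 0.0074), Cdk1 (0.49), Hus1 (0.42, adjusted p = 0.0122) and Wee1 (0.41, adjusted p = 0.0156). With normexp Wee1 was not called there (adjusted p = 0.203). With a fixed slide block the list's median was 0.08 and none was called. With a random block Cdc25a was the one gene of the list called between vectors, over both times (0.40, adjusted p = 0.0468).

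**Figure D5:**
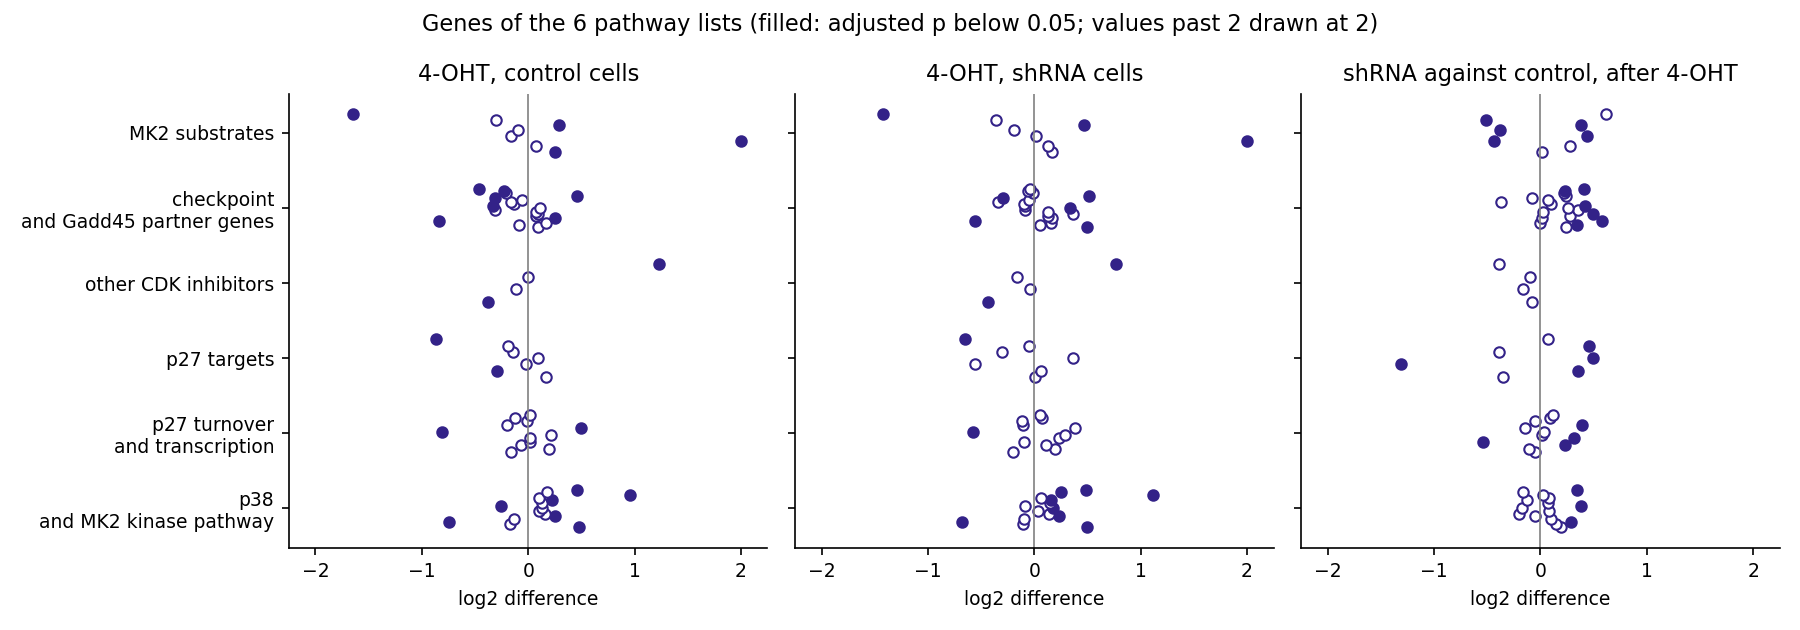
Log2 difference (x axes) of each tested gene of the 6 pathway lists (rows), for 4-OHT in control cells, 4-OHT in shRNA cells, and shRNA minus control after 4-OHT; filled points have an adjusted p below 0.05. Hnrnpa0 is left out, and Lsp1, not well above background before 4-OHT, is drawn at 2. In the right panel the 6 filled checkpoint genes all lie above 0.

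Genes whose levels ran most like each member over the arrays were taken from 14373 named and unnamed genes with a value on every array, with unnamed transcripts set aside. Nearest to Gadd45a were Ppig, Rhoj and Mrap, with Pearson's r of 0.996, 0.995 and 0.994 over 12 arrays. Gadd45g ran closest to Il18rap, Klra2 and Pcsk7 (0.986, 0.985 and 0.980), and Mapkapk2 to Slc48a1, Pde2a and Tbc1d9b (0.992, 0.987 and 0.987). For these 3 members the arrays fall into 2 blocks by 4-OHT, and the correlations describe that split. For Cdkn1b, by its downstream probe and over 11 arrays, the nearest were Rbm45, Aspa and Mier3 (0.919, 0.913 and 0.895). Gadd45b ran closest to Sim2, Oprl1 and Tent5c (0.946, 0.945 and 0.942), also over 11 arrays. By the probes used here, Cdkn1b and Gadd45b had no call in any comparison, and what their correlations reflect was not tested.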

How the data were processed

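RNA of 12 cultures was hybridised to 1-colour Agilent 4x44K mouse arrays. The deposited scanner files hold the processed signal, a background-subtracted intensity per spot, made with Agilent Feature Extraction 9.5.3.1 per the file headers. In the authors' deposited summary table the intensity of each spot was equal to within 0.497%. Groups came from the sample labels, and names of 41174 probes from the files and RefSeq.

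Intensities were taken as log2 over each array's 75th percentile, outlier spots were dropped and spots of a probe averaged. A probe was kept if 3 or more of 12 arrays had it well above background and each group had 2 or more values. The probe of highest mean stood for a gene, and every member probe was also tested on its own. Group means were fitted with limma 3.58.1 (R 4.3.3) over all 15063 genes, with 8 residual degrees of freedom, Benjamini-Hochberg adjustment and a threshold of 0.05. The script was tested on simulated data. The rule for named genes took the 5 members, Hnrnpa0, up to 4 called genes of largest difference per list and comparison, and the 3 genes most correlated with each member. The members and lists were chosen with earlier results of these data known. One marker gene is not reported here. Comparisons that share a group, such as both 4-OHT comparisons with the vector comparisons, share its arrays.

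Alternatives were quantile and normexp (offset 50) scaling, other filters, slide and replicate blocks, the mean of all probes, the summary table, kept outlier spots, fits on the groups compared, and each array left out. The number of arrays limits the precision. Figures were drawn with matplotlib 3.10.9.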

Additional observations from a re-analysis of the deposited data

How the results depend on the processing

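The 4-OHT calls of Gadd45a, Gadd45g and Mapkapk2 kept their direction and their call under all 24 or 25 alternatives run for each, slide blocks included. Single slides are among them, but there one time has 1 array and so no replicate. Gadd45a ranged from -1.94 to -1.60 in control and from -2.06 to -1.66 in shRNA cells on the log2 scale. The vector differences did not hold in this way. A fixed slide block put the difference over both times at 0.12 for Gadd45a, 0.43 for Gadd45g and 0.22 for Mapkapk2, and that of Mapkapk2 after 4-OHT at 0.23. With a random block (correlation 0.39) these were -0.23, 0.30, 0.28 and 0.32. Neither block left a call, so that 0 of the 5 genes were called after 4-OHT or over both times. The cause was not tested, and slides and vectors overlap in part.

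Gadd45a over both times was -0.29 with normexp, below the threshold. Its difference after 4-OHT, -0.42, passed when probes had to be well above background on all 12 arrays, and 2 genes were then called. Without a filter on dim probes more genes were tested, Mapkapk2 after 4-OHT (0.37) missed the threshold and 0 were called. Averaging all passing probes gave Cdkn1b a 4-OHT difference of 0.55 in control cells, dim probe included, and Gadd45b a vector difference of 0.16 over both times, both called. Taken alone, the coding probe of Cdkn1b gave 0.35 for 4-OHT in control cells and 0.26 between vectors over both times, a sign opposite to the downstream probe. The probe A_52_P1197913 of Gadd45b alone gave 0.31 after 4-OHT, a call lost without a filter on dim probes (adjusted p = 0.0842), and 0.29 over both times.

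With single arrays left out, the vector difference after 4-OHT ran from -0.50 to -0.31 for Gadd45a and from 0.31 to 0.42 for Mapkapk2, and that of Gadd45g over both times from 0.20 to 0.29. Between 0 and 2 of the 5 genes were then called after 4-OHT; Gadd45a gained a call without shRNA before C (adjusted p = 0.0335).

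The labels do not say whether the replicate letters pair the arrays, and the main fit did not pair them. Between times, correlations of same-letter deviations were 0.26, 0.05 and 0.20 (A, B and C) in control cells. In shRNA cells they were 0.06, -0.04 and 0.15. Across vectors they ran from -0.09 to 0.30. In the same vector, 8 of 12 arrays correlated best with their own letter. The count was not set against chance, and pairing was not tested. With the letter as a replicate block, Gadd45a after 4-OHT stayed at -0.42 with a call, 2 of the 5 genes were called there, and genes called between vectors before 4-OHT went from 57 to 185. It changed no other call of the 5 genes.

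Counts over all genes moved most between vectors. The 57 calls before 4-OHT became 168 with quantile scaling, 2 with normexp, 336 with the stricter filter, 10 without a filter, 33 with averaged probes, 1 in a fit on those groups alone, 0 with either slide block, and 0 to 496 with an array left out. The 2512 after 4-OHT became 358 without a filter, 1107 on those groups alone and 308 to 3015 with an array left out, and 1 and 0 with a fixed and a random slide block. The 4215 over both times became 0 and 40. Of calls after 4-OHT 47.1% were higher with the shRNA, against 56% with quantile scaling and 30.9% with normexp; over both times 44.2%, 54.2% and 34.4%; before 4-OHT 38.6%, 54.8% and 0%. Within slide 1 and slide 3 alone, 3470 and 2639 genes were called for 4-OHT. Gadd45b has no value within slide 1, whose array after 4-OHT lost its spot.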
